A study of Mus musculus with 12 samples.

Results

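The data concern the effect of starvation in CT26 cells that were also treated with oxaliplatin. This effect was measured as STS+OXP minus OXP, with the arrays taken by their titles. It rests on 6 of the 12 arrays of the series, 3 labelled STARVATION + OXALIPLATIN (STS+OXP) and 3 labelled OXALIPLATIN (OXP), and it was followed over 17097 genes, each represented by the probe set with the highest mean signal over the 12 arrays among those with a single gene symbol. CT26 is an established mouse colon carcinoma line. The OXP cells were kept for 48 hours with glucose at 1.0 g/L and serum at 10%, and received oxaliplatin. The STS+OXP cells received the same drug under short-term starvation, for 48 hours with glucose at 0.5 g/L and serum at 1%. The labels place oxaliplatin 24 hours after the start of starvation and give a concentration of 10 µM, whereas the methods and legends of the study also give higher ones. The other 6 arrays are 3 of untreated cells in the richer medium (CTR) and 3 of cells under starvation without drug (STS). Since glucose and serum were lowered together, their parts in the differences cannot be told apart. All values are log2 signals, so that a difference of 1 is a 2-fold change.

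Oxaliplatin is a platinum drug that forms crosslinks on DNA and blocks its replication. Starved cells lose growth factors, lipids and other components of serum as well as sugar. Among the best known responses are that of the SREBP factors, which switch on cholesterol and fatty acid synthesis when sterols are scarce, that of ATF4, which raises amino acid transport and synthesis when translation is under stress, and that of HIF-1, which drives glycolysis and is itself influenced by growth factor signalling.

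The array labelled OXP replicate 2 stood apart from the other OXP arrays. Its root mean square distance over all genes was 0.345 to OXP replicate 1 and 0.251 to OXP replicate 3, but only 0.143 to 0.204 to the STS+OXP arrays, which lay 0.143 to 0.177 from one another. On the second principal component of the 12 arrays, OXP replicates 1 and 3 scored 17.2 and 12.2, OXP replicate 2 scored −4.45 and the STS+OXP arrays −3.22 to −0.11. Whether this array holds RNA of another group than its label says was not tested, so each value over all arrays is that of the arrays as labelled. OXP replicate 1 had a 3′ minus 5′ difference of 3.85 for the Gapdh control probe sets, against −0.117 to 0.284 on the other arrays, a difference that shortened RNA can give. Each result is therefore given without OXP replicate 2, with all arrays, and, where it matters, without OXP replicates 1 and 2, when a single OXP array is left and is assumed to vary like the arrays of the other groups. Of 12 epithelial markers, 2 to 3 were above the floor set by control probe sets on each array except OXP replicate 1, where 7 were. Cdh1, Cldn7, Krt18, Krt19 and Ocln were not above it on any array. Of 11 mesenchymal markers, 9 to 10 were above it on each array.

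**Figure D1:**
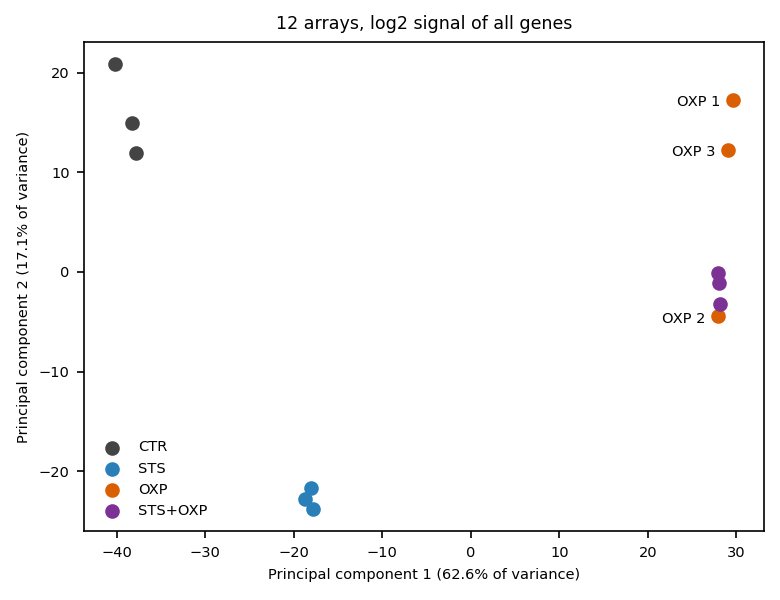
Scores of the 12 arrays on the first and second principal components of all 17097 genes, which hold 62.6% and 17.1% of the variance, with 1 point per array and 1 colour per group. OXP replicate 2 lies with the STS+OXP arrays, and OXP replicates 1 and 3 lie above them.

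With all 3 OXP arrays, 2 of 17097 genes (0.0117%) passed an adjusted p of 0.05 between STS+OXP and OXP with limma. At an unadjusted p of 0.05, 2160 genes (12.6%) passed, 787 higher (4.6%) and 1373 lower (8.03%) in STS+OXP. Without OXP replicate 2, 1166 genes (6.82%) were called, 407 higher (2.38%) and 759 lower (4.44%), and 103 of them differed at least 2-fold. The omitted array was chosen for its closeness to the STS+OXP arrays, so leaving it out widens the distance between the groups by construction. On that array, 1087 of the 1166 called genes (93.2%) were nearer to the STS+OXP mean than to the mean of the other OXP arrays, against 61.7% of all genes. Without OXP replicates 1 and 2, 688 genes (4.02%) were called, 335 higher (1.96%) and 353 lower (2.06%), and the 526 in common made up 45.1% of the first calls and 76.5% of the second. Among the 1166 genes, the difference drawn from OXP replicate 1 exceeded 1.5 times that from OXP replicate 3 for 460, and the reverse held for 99. Over all genes the median difference was −0.019 without OXP replicate 2 and −0.000772 with all arrays. No source says that the arrays are separate cultures, so the p-values measure only the spread between these arrays. In whole cultures fewer cells with a transcript and less of it per cell cannot be told apart. In what follows, rose and fell refer to genes called without OXP replicate 2. The count of each list stands beside 2.38% of all genes higher and 4.44% lower. Apart from Shmt1 and Angpt2, the named genes had adjusted p-values of 0.153 or more with all arrays.

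Shmt1 and Angpt2 were the genes that passed with all arrays. Shmt1, which encodes the cytosolic serine hydroxymethyltransferase of folate metabolism, read 5.86, 5.77 and 5.72 on OXP replicates 1 to 3 and 6.32, 6.38 and 6.36 on the STS+OXP arrays. The groups did not overlap, and here OXP replicate 2 lay with the other OXP arrays. The difference was 0.57 with all arrays (adjusted p = 0.0297) and 0.56 without OXP replicate 2 (adjusted p = 0.00143), whereas 3 dimmer probe sets of Shmt1 gave −0.12, −0.07 and −0.02. Angpt2, a ligand of the endothelial TIE2 receptor, read 4.64, 4.55 and 4.71 with OXP and 4.04, 4.02 and 4.09 with STS+OXP. Again no OXP array reached the STS+OXP range, with a difference of −0.58 over all arrays (adjusted p = 0.0244). A second probe set of Angpt2, at the level of the floor, gave 0.01. Within the 22 serine and folate one-carbon genes, 3 rose and 6 fell. Phgdh, the first enzyme of serine synthesis, rose by 0.74 and Aldh1l2, a mitochondrial enzyme of folate metabolism, by 0.41. Mthfs, which recycles formyltetrahydrofolate, fell by 0.72. The difference of Phgdh was 0.39 and was not called without OXP replicates 1 and 2 (adjusted p = 0.0725).

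Every measured gene in the list named cholesterol synthesis and uptake rose. These were 19 of 19 without OXP replicate 2, with a median difference of 1 against −0.019 over all genes. None of the measured members is an uptake receptor, so the list does not speak to uptake. Idi1, an isomerase that makes the building blocks of isoprenoids, read 7.98, 9.48 and 7.80 on OXP replicates 1 to 3 and 9.41, 9.30 and 9.30 on the STS+OXP arrays. OXP replicate 2 lay above every STS+OXP array, and the other OXP arrays lay more than 1 log2 unit below them. The difference was 1.45 ± 0.10 (SE; adjusted p = 3.61e-06). Fdps, which makes farnesyl pyrophosphate, read 6.99, 9.71 and 8.34 with OXP and 9.65, 9.58 and 9.50 with STS+OXP. Its OXP arrays spread over almost 3 units, so that the difference of 1.91 without OXP replicate 2 became 1.23 when OXP replicate 1 was also left out (adjusted p = 2.35e-05). Tm7sf2, a sterol reductase, read 4.42, 6.31 and 4.61 with OXP and 6.40, 6.44 and 6.11 with STS+OXP, a rise of 1.80. Hmgcs1, which makes the substrate of HMG-CoA reductase, was not above the floor on OXP replicates 1 and 3 and was at least 1.6-fold higher in STS+OXP than on these. Srebf2, the regulator of the pathway, rose by 1.07 and Cyp51, a lanosterol demethylase, by 1.02. The core of the sterol response element, CACCCCAC on either strand, lay in the promoter window of 1 of 15 members with a window (6.67%) and of 3.78% of all genes with one. Insig1, which retains SREBP in the endoplasmic reticulum, rose least, by 0.57, and was the only member not called without OXP replicates 1 and 2 (adjusted p = 0.051). With all arrays the median of the group was 0.626 and no member passed. The OXP replicate 2 value was nearer to the STS+OXP mean for 19 of the 19 genes. Over all 6 arrays the groups did not overlap for 1 of the 19 members, against 36.4% of all called genes and 12.4% of all genes. This was Dhcr7, singled out after its values were seen, which read 7.83, 8.08 and 7.52 with OXP and 8.26, 8.39 and 8.15 with STS+OXP.

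Of 18 genes of fatty acid synthesis and desaturation, 12 rose and 0 fell, with a median of 0.539 without OXP replicate 2 and 0.341 with all arrays. Fasn, the fatty acid synthase, read 7.46, 9.10 and 8.05 on OXP replicates 1 to 3 and 9.22, 9.21 and 9.18 on the STS+OXP arrays. All OXP arrays lay below the STS+OXP range, although OXP replicate 2 only by a small margin. The rise was 1.45 ± 0.16 (SE; adjusted p = 0.000137) without OXP replicate 2 and 1.15 without OXP replicates 1 and 2. Fads2, a desaturase of polyunsaturated fatty acids, read 5.43, 8.48 and 7.72 with OXP and 8.50, 8.47 and 8.39 with STS+OXP, so that its difference was 1.87 without OXP replicate 2 and 0.73 without OXP replicates 1 and 2. The other probe sets of Fads2 gave 1.07 and 0.84. Elovl6, which elongates palmitate, rose by 1.10, Acaca, which supplies malonyl-CoA, by 1.04 and Acss2, which activates acetate, by 0.99.

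**Figure D2:**
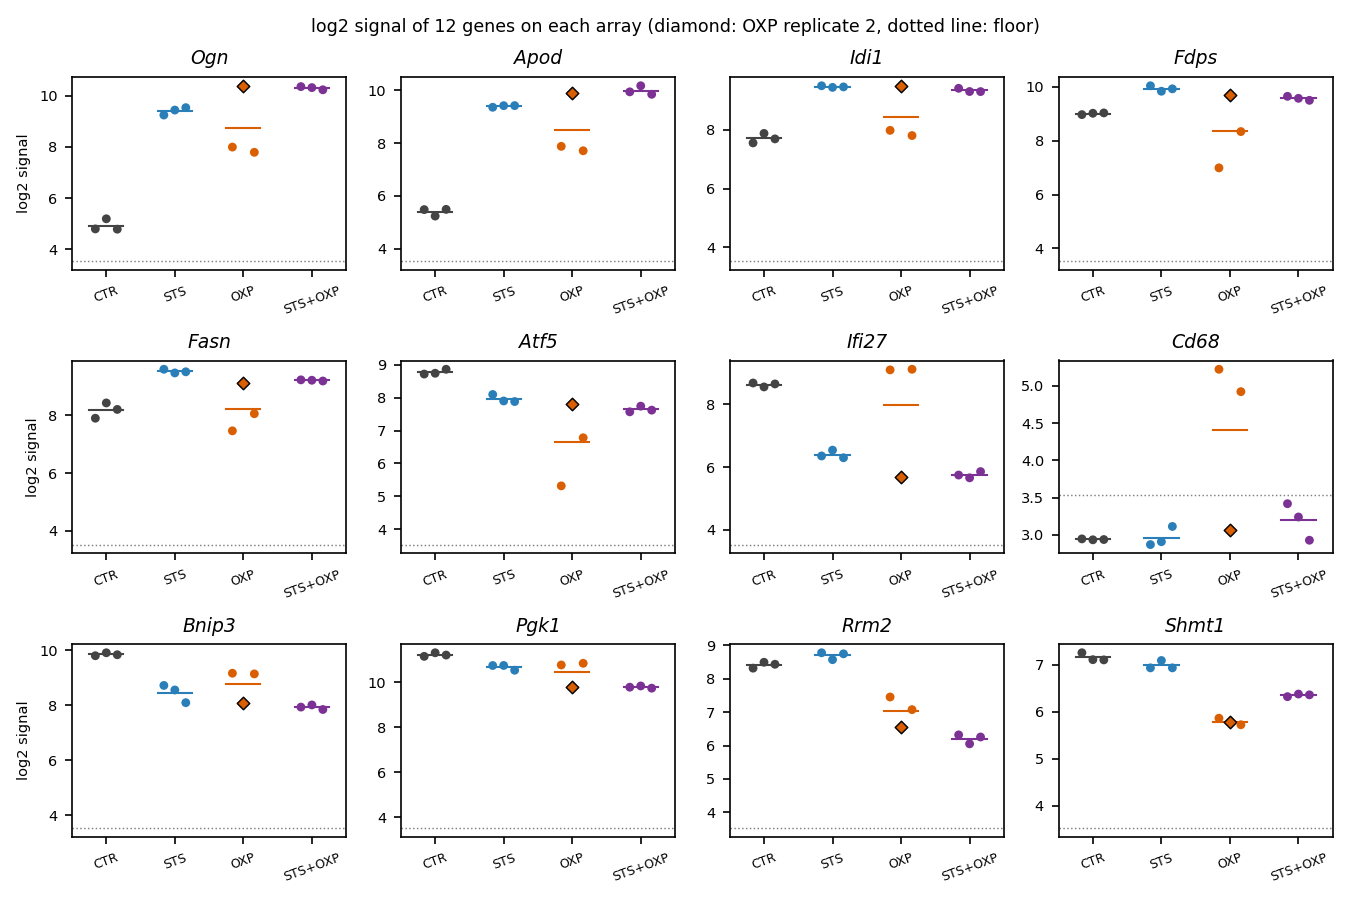
Log2 signal of 12 genes on each array in the 4 groups, with circles for arrays, a diamond for OXP replicate 2, a line at each group mean (OXP replicate 2 included) and a dotted line at the mean floor of 3.53. For Idi1 and Fdps the diamond lies at the level of the STS+OXP arrays, and for Shmt1 it lies with the other OXP arrays.

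The called genes of glycolysis and among HIF-1 targets were all lower in STS+OXP. The promoters of 4 of these genes are shown first because they carry the core of the hypoxia response element, ACGTG, searched on both strands, which overlaps the E-box CACGTG wherever the latter occurs. The windows run from 250 bases before to 50 bases after each annotated start in the RefSeq annotation of GRCm38.p6, and capitals mark ACGTG or its reverse complement CACGT, fused where they overlap. The stretches shown, chosen after the matches were seen and cut around them, are chr7:138909584-138909639 on the minus strand for Bnip3, chr16:36071613-36071667 on the minus strand for Fam162a, chrX:106186925-106186998 on the plus strand for Pgk1 and chr7:46845634-46845799 on the plus strand for Ldha.
Bnip3: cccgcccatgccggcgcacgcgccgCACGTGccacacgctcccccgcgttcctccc
Fam162a: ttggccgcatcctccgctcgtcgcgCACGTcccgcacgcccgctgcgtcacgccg
Pgk1: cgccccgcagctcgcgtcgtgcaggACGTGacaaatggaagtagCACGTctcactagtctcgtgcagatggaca
Ldha: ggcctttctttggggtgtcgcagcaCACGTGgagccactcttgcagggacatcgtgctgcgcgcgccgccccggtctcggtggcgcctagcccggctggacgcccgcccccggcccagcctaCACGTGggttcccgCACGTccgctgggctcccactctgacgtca
A window was found for 13514 of the 17097 genes, and 26.1% of them held ACGTG, in 22.8% of all windows. The letters were present for 19 of 27 HIF-1 targets with a window (70.4%) and for 9 of 16 glycolytic genes (56.2%). Among all genes called without OXP replicate 2, they were present in 29.9% of those lower and 31.6% of those higher. A match describes the sequence and does not show that a factor binds there.

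Of 16 glycolytic genes, 9 fell and 0 rose, with a median of −0.563 without OXP replicate 2, −0.36 with all arrays and −0.611 without OXP replicates 1 and 2. Pfkp, a phosphofructokinase and the member that fell most, read 6.77, 5.58 and 6.66 on OXP replicates 1 to 3 and 5.53, 5.46 and 5.44 on the STS+OXP arrays, a difference of −1.24. Pgk1, the phosphoglycerate kinase, read 10.77, 9.77 and 10.84 with OXP and 9.78, 9.83 and 9.74 with STS+OXP, and differed by −1.02 ± 0.09 (SE; adjusted p = 2.01e-05). The values of Ldha, which reduces pyruvate to lactate, were 11.23, 10.56 and 11.28 with OXP and 10.51, 10.47 and 10.50 with STS+OXP, a difference of −0.76. In all 3 genes OXP replicates 1 and 3 lay close to each other, and OXP replicate 2 lay inside or just above the STS+OXP range. The triose phosphate isomerase Tpi1 fell by 0.84 and Hk1, the hexokinase of most tissues, by 0.47. Where 2.38% of all genes rose and 4.44% fell, 1 of 14 glucose and monocarboxylate carriers rose and 1 fell. The first was Slc2a6 (0.46) and the second the glucose transporter Slc2a1 (−0.32, adjusted p = 0.047). Of 14 regulators of glycolysis 1 rose, Mlxip (0.42), and 2 fell, the pyruvate dehydrogenase kinases Pdk1 (−0.84) and Pdk3 (−0.45). When OXP replicates 1 and 2 were both left out, Hk1 (−0.43), Slc2a6 (0.21), Slc2a1 (−0.26), Mlxip (0.25) and Pdk3 (−0.34) were not called. None of 9 genes of the pentose phosphate pathway was called.

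Of 32 HIF-1 targets, 14 fell and 0 rose, with a median of −0.152 without OXP replicate 2. Bnip3, a mitophagy receptor, read 9.17, 8.07 and 9.14 on OXP replicates 1 to 3 and 7.93, 8.01 and 7.85 on the STS+OXP arrays. The groups did not overlap even with OXP replicate 2, which lay just above the STS+OXP range, and the difference without it was −1.22 ± 0.14 (SE; adjusted p = 0.000172). Fam162a, a mitochondrial protein, read 10.01, 8.71 and 10.00 with OXP and 8.71, 8.83 and 8.69 with STS+OXP, a difference of −1.26. Ankrd37 read 4.82, 3.19 and 4.70 with OXP and 3.34, 3.32 and 3.28 with STS+OXP, where it was not above the floor, so that it was at least 2.25-fold lower than on OXP replicates 1 and 3. With OXP replicate 2 its difference was −0.92. Plod1, a collagen lysyl hydroxylase, fell by 1.25 and Ndrg1, a stress-responsive gene, by 0.84. Gbe1, which branches glycogen, and Car9, a carbonic anhydrase, were also not above the floor in STS+OXP, and were at least 1.72-fold and 1.28-fold lower without OXP replicate 2. Without OXP replicates 1 and 2, 10 of the 32 were lower and 0 higher, and with all arrays the median was −0.109 with none called.

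**Figure D3:**
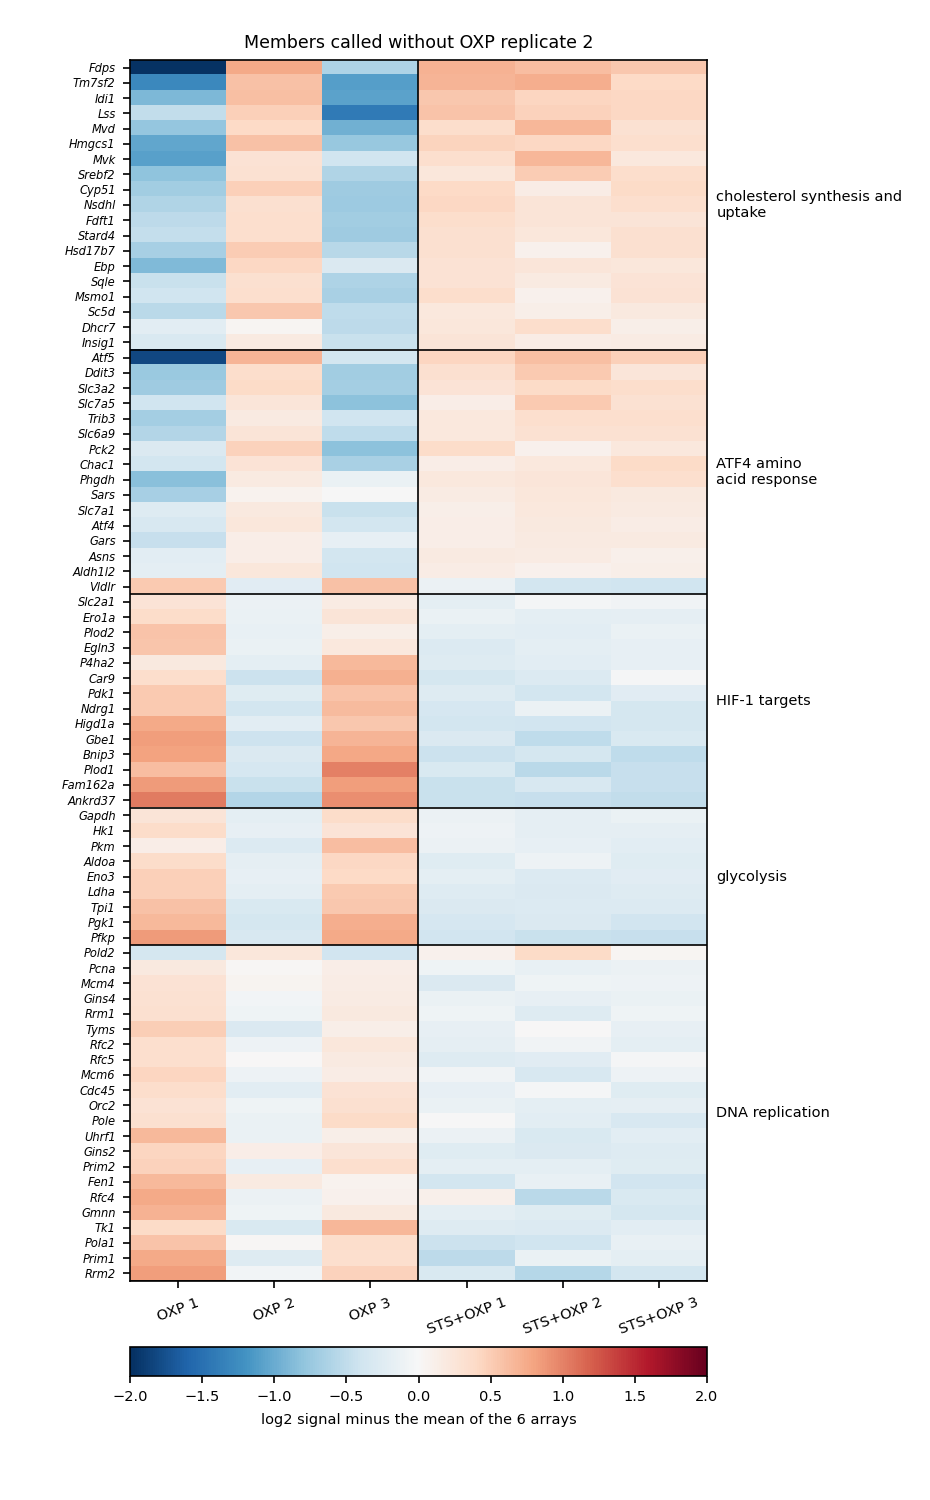
Log2 signal minus the mean of the 6 arrays for the called members of 5 gene lists, with 1 column per OXP or STS+OXP array and 1 row per gene, red for higher and blue for lower. The column of OXP replicate 2 resembles the STS+OXP columns for cholesterol synthesis and uptake.

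Many genes of DNA replication fell. Of 45 members, 21 fell and 1 rose without OXP replicate 2, where 4.44% and 2.38% of all genes did, and the median was −0.375, or −0.231 with all arrays. Rrm2, the regulatory subunit of ribonucleotide reductase, read 7.45, 6.56 and 7.07 on OXP replicates 1 to 3 and 6.32, 6.05 and 6.26 on the STS+OXP arrays. OXP replicate 2 was the lowest of its group and still lay above every STS+OXP array. The difference was −1.05 ± 0.12 (SE; adjusted p = 0.000162), whereas another probe set of Rrm2 gave −0.30. Pola1, the catalytic subunit of the polymerase that starts new strands, read 4.59, 4.04 and 4.37 with OXP and 3.58, 3.62 and 3.87 with STS+OXP, and differed by −0.79 without OXP replicate 2 and by −0.64 with all arrays (adjusted p = 0.153). Its STS+OXP values lay near the floors of these arrays, 3.43, 3.62 and 3.72. Prim1, a primase subunit, fell by 0.83, Tk1, the thymidine kinase of S phase, by 0.77 and Gmnn, the inhibitor of licensing, by 0.71. The 1 gene that rose was Pold2 (0.54), a subunit of polymerase delta. For 11 of the 22 called genes the groups did not overlap over all 6 arrays, against 36.4% of all called genes and 12.4% of all genes. Without OXP replicates 1 and 2 the counts were 9 lower and 1 higher, and Gmnn differed by −0.46. Ccne2, a cyclin of the entry into S phase, read 4.67, 3.79 and 4.38 with OXP and 3.82, 3.57 and 3.33 with STS+OXP, a difference of −0.95. On STS+OXP replicates 2 and 3 Ccne2 lay under the floors of 3.62 and 3.72. It was among 6 of 23 cyclin-dependent kinase inhibitors and G1 regulators that fell, of which 3 were called without OXP replicates 1 and 2, while 0 rose.

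Genes of mitosis were called in both directions. Of 48 members, 9 rose and 3 fell, and the median was 0.0933. Over all genes 6.82% were called, 2.38% higher and 4.44% lower, the shares beside each count in this paragraph. Foxm1, a transcription factor of late cell cycle genes, rose by 0.74, Cdc20, an activator of the anaphase-promoting complex, by 0.66 and Ube2c, its ubiquitin-conjugating partner, by 0.61. Other probe sets of Foxm1 gave 0.27, 0.15 and −0.07. The 3 that fell were Aurkb (−0.52), Ccna2 (−0.42) and Birc5 (−0.40), and none of them was called without OXP replicates 1 and 2, nor was Ube2c (0.31). Of 36 p53 targets 3 rose and 4 fell. Gadd45a, a stress-induced growth arrest gene, read 5.48, 6.68 and 5.01 on OXP replicates 1 to 3 and 6.52, 6.15 and 6.50 on the STS+OXP arrays, a rise of 1.14. Here OXP replicate 2 had the highest value of the 6 arrays. Fas, a death receptor, read 7.04, 6.16 and 6.31 with OXP and 5.87, 5.40 and 5.55 with STS+OXP, so that all OXP arrays lay above all STS+OXP arrays, and it fell by 1.07, or by 0.71 without OXP replicates 1 and 2. Ddb2, which recognises damaged DNA in nucleotide excision repair, read 6.18, 5.24 and 5.81 with OXP and 5.14, 5.04 and 5.04 with STS+OXP, and fell by 0.92. The other called p53 targets were Btg2 (0.68), Bbc3 (0.53), Cd80 (−0.49) and Mdm2 (−0.47), none of which was called without OXP replicates 1 and 2, where Bbc3 differed by 0.29. Of 31 genes of Fanconi and homologous recombination repair 4 fell and 0 rose, Brca1 (−0.65), Mre11a (−0.58), Mus81 (−0.48) and Fancf (−0.36), none of which was called without OXP replicates 1 and 2. In that fit Brca1 differed by −0.41 and another member, Rad51c, was lower (−0.39). Of 24 pro-apoptotic genes 1 rose and 2 fell, Bbc3, Fas and Cycs (−0.28, not called without OXP replicates 1 and 2). Of 12 anti-apoptotic genes Bcl2l1 fell (−0.36), whereas dimmer probe sets of Bcl2l1 gave 0.37, 0.16 and 0.005.

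Called genes of the ATF4 amino acid response were mostly higher in STS+OXP. Of 36 members, 15 rose, 1 fell and 20 were not called without OXP replicate 2, with a median of 0.285, or 0.227 with all arrays. Atf5, a factor related to ATF4, read 5.32, 7.82 and 6.78 on OXP replicates 1 to 3 and 7.57, 7.74 and 7.62 on the STS+OXP arrays. OXP replicate 2 exceeded all STS+OXP arrays, and the rise of 1.60 became 0.86 when OXP replicate 1 was also left out. Slc3a2, the heavy chain of several amino acid transporters, read 9.36, 10.45 and 9.39 with OXP and 10.35, 10.45 and 10.43 with STS+OXP, a rise of 1.04 ± 0.09 (SE; adjusted p = 2.25e-05). Ddit3, which encodes CHOP, read 7.05, 8.14 and 7.10 with OXP and 8.12, 8.31 and 8.04 with STS+OXP, and rose by 1.08. In both genes OXP replicates 1 and 3 were nearly equal and OXP replicate 2 lay at the level of the STS+OXP arrays. Slc7a5, the light chain of the leucine transporter, rose by 0.92 and Asns, the asparagine synthetase, by 0.44. The 1 gene that fell was Vldlr (−0.85), a lipoprotein receptor. Of 18 aminoacyl-tRNA synthetases 5 rose, led by Aars (0.87), and Hars (−0.46) fell, and of these Aars was the only one called without OXP replicates 1 and 2.

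Several chaperones of the endoplasmic reticulum rose. Of 26 genes of folding and the unfolded protein response, 11 rose, 0 fell and 15 were not called, and the median was 0.4, or 0.239 with all arrays. Hspa5, the chaperone BiP, read 10.30, 11.11 and 10.37 on OXP replicates 1 to 3 and 11.13, 10.85 and 10.97 on the STS+OXP arrays. The value of OXP replicate 2 lay between those of the STS+OXP arrays, and the rise without it was 0.65 ± 0.09 (SE; adjusted p = 0.000725). Sdf2l1 rose by 0.70, Creld2 by 0.64 and Calr, the calcium-binding chaperone calreticulin, by 0.64. Of 19 heat shock proteins, which act mostly in the cytosol, 0 rose and 3 fell, where 2.38% and 4.44% of all genes did. Hspa1b, an inducible member of the HSP70 family, read 7.85, 6.69 and 7.76 with OXP and 6.65, 6.59 and 6.65 with STS+OXP, a difference of −1.17, and Hsph1 and Hspa4l fell by 0.93 and 0.90.

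**Figure D4:**
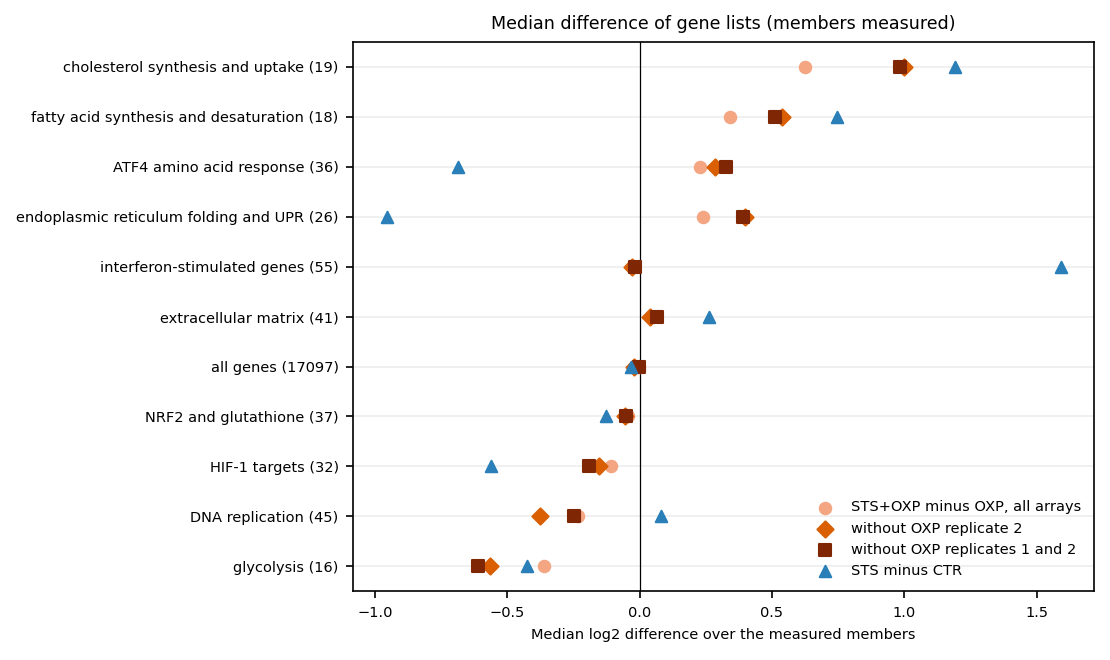
Median log2 difference of 10 gene lists and of all genes for STS+OXP minus OXP with all arrays, without OXP replicate 2 and without OXP replicates 1 and 2, and for STS minus CTR. The median of the ATF4 list was 0.285 without OXP replicate 2 and −0.685 for starvation alone.

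Among the called genes, the largest fall was that of Ifi27, an interferon-induced membrane protein of mitochondria and the nuclear envelope. It read 9.10, 5.68 and 9.12 on OXP replicates 1 to 3 and 5.75, 5.66 and 5.86 on the STS+OXP arrays. OXP replicate 2 lay within the STS+OXP range, and without it Ifi27 was 10.2-fold lower (log2 difference −3.35 ± 0.09, SE, adjusted p = 5.05e-10). The related Ifi27l2a, which the annotation places so that the spans of the 2 genes overlap, moved the opposite way, from 10.11, 11.81 and 9.84 to 11.75, 11.81 and 11.54. Of 55 interferon-stimulated genes in the list, 10 rose and 6 fell. Irf7, a regulator of interferon production, read 8.12, 10.34 and 9.54 with OXP and 10.34, 10.37 and 10.24 with STS+OXP, a rise of 1.48 that became 0.77 without OXP replicates 1 and 2. Zbp1, a sensor of nucleic acids, rose by 0.69 and H2-D1, a class I antigen-presenting molecule, by 0.78. Cxcl10, a chemokine that draws T cells, read 7.36, 6.72 and 7.29 with OXP and 6.19, 6.51 and 6.30 with STS+OXP, and its fall of 0.99 was seen with no overlap between all 6 arrays. Of 27 NF-kB targets 0 were called higher and 4 lower, where 2.38% and 4.44% of all genes were. The chemokine Ccl2 fell by 0.99 and Ccl7, not above the floor in STS+OXP, was at least 1.27-fold lower without OXP replicate 2. The others were Sod2 (−0.32) and Il6, which was not above the floor in STS+OXP and too near it in OXP for a fold, and neither was called without OXP replicates 1 and 2. Cd68, best known as a macrophage marker, read 5.22, 3.07 and 4.92 with OXP and 3.42, 3.24 and 2.93 with STS+OXP, where it was not above the floor, so that it was at least 2.8-fold lower than on OXP replicates 1 and 3. On OXP replicate 2 it was not above the floor either, and with that array its difference was −1.21. Of 11 macrophage markers Cd68 and Cd14 (−0.63) fell and the others were not called. Their summed level was 8.24 to 8.8 with OXP and 8.16 to 8.24 with STS+OXP, and Lyz2, Itgam, Ptprc, Aif1, Cd163 and Mrc1 were not above the floor on any of these arrays.

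Several secreted and matrix proteins were among the genes that rose most. Ogn, the small proteoglycan osteoglycin, read 8.0, 10.40 and 7.79 on OXP replicates 1 to 3 and 10.37, 10.33 and 10.24 on the STS+OXP arrays. Apod, a lipid carrier, read 7.88, 9.89 and 7.71 with OXP and 9.94, 10.17 and 9.85 with STS+OXP. The rises were 2.42 ± 0.13 for Ogn (SE; adjusted p = 4.42e-07) and 2.19 ± 0.11 for Apod (SE; adjusted p = 4.32e-07), and OXP replicate 2 lay with the STS+OXP arrays in both. Ccdc80, a matrix-associated protein, rose by 2.17 and Omd, the proteoglycan osteomodulin, by 1.63. A dimmer probe set of Ccdc80 gave 0.48. In the list of 41 matrix genes 9 were called higher and 2 lower. Sparc, which binds collagen, rose by 0.86, or by 0.37 without OXP replicates 1 and 2, and Fbln5, a protein of elastic fibres, rose by 0.81. The matrix metalloproteinase gene Mmp3 fell by 1.02. The other lower gene, Mmp13, was not above the floor in STS+OXP, too near it in OXP for a fold, and not called without OXP replicates 1 and 2.

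Early response genes also moved in both directions. Nr4a1, an immediate early nuclear receptor, read 7.45, 9.35 and 7.71 on OXP replicates 1 to 3 and 9.07, 9.21 and 9.51 on the STS+OXP arrays, a rise of 1.68. Of 33 serum response and immediate early genes 6 rose and 3 fell, where Junb, a subunit of AP-1, rose by 1.42 and Ier2 by 1.41. The 3 that fell were Klf2 (−1.81), Klf10 (−0.98) and the growth factor gene Ereg (−0.51). Junb differed by 0.83 without OXP replicates 1 and 2, and Klf10 was then not called (−0.66). Klf2, a factor better known from endothelium, read 7.33, 5.44 and 6.80 with OXP and 5.24, 5.17 and 5.36 with STS+OXP. Id2, an inhibitor of basic helix-loop-helix factors, read 8.54, 6.96 and 8.49 with OXP and 6.89, 6.51 and 6.74 with STS+OXP. The fall of Id2 was 1.81 ± 0.15 (SE; adjusted p = 1.89e-05), and other probe sets of Id2 gave −1.31 and −0.13. Other large falls outside the lists were those of Akr1c18, a steroid reductase (−1.72), of Adcy7, an adenylate cyclase (−1.75), and of the neurofilament genes Nefl (−1.59) and Nefm (−1.58). Mean signals over the 12 arrays were 3.893 for Akr1c18 and 4.234 for Adcy7, against a mean floor of 3.53. A dimmer probe set of Adcy7 gave 0.03. Whether the floor limits these falls of Akr1c18 and Adcy7 was not tested.

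Antioxidant genes fell in part. Of 37 NRF2 and glutathione genes 10 fell and 1 rose (Gstm1, 0.46). Without OXP replicates 1 and 2, 6 were lower and 0 higher, and Gstm1 differed by 0.29. Gpx1, the main cytosolic glutathione peroxidase, read 10.41, 9.10 and 10.29 on OXP replicates 1 to 3 and 9.01, 9.20 and 9.03 on the STS+OXP arrays, a difference of −1.26 ± 0.08 (SE; adjusted p = 1.93e-06). Hmox1, which degrades haem, read 6.36, 5.21 and 6.27 with OXP and 5.27, 5.34 and 5.14 with STS+OXP, and fell by 1.07. The quinone reductase Nqo1 fell by 1.07 as well. Called genes in the lists of fatty acid oxidation, oxidative phosphorylation and the tricarboxylic acid cycle mostly fell. Among all 1166 called genes 759 fell too, and over all genes 4.44% were called lower and 2.38% higher. Of 20 genes of fatty acid oxidation 5 fell and 0 rose, led by Etfdh, which passes electrons to ubiquinone (−0.63). Of 71 genes of oxidative phosphorylation 9 fell and 0 rose, with a median of −0.212 and 1 of them, Ndufb3, called without OXP replicates 1 and 2. Of 24 genes of the tricarboxylic acid cycle Idh1 rose (0.67) and Idh3a (−0.48), Sdhd (−0.48, not called without OXP replicates 1 and 2) and Pcx (−0.47) fell. Of 49 autophagy and lysosome genes 7 fell and 0 rose, among them Mitf, a regulator of pigment and lysosome genes (−1.20), and the protease gene Ctsb (−0.47), the pair that was also called without OXP replicates 1 and 2. None of 47 ribosome biogenesis genes and none of 18 metallothionein and zinc transporter genes was called in either direction.

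The calls in smaller sets are given next, where 6.82% of all genes were called, 2.38% higher and 4.44% lower. Of 22 YAP and SRF targets Amotl2 (0.89), Ajuba (0.61) and Cnn2 (0.42) rose and Tpm2 (−0.70) and Tpm4 (−0.33) fell. Of 33 genes of FoxO and insulin signalling Gadd45a, the receptor gene Igf1r (0.58) and the kinase gene Pik3ca (0.42) rose and Sod2 fell. Other probe sets of Pik3ca gave −0.05, 0.17, 0.14, −0.009 and 0.19. Of 17 angiopoietins and vascular factors Vegfb (0.60) and Edn1 (0.46) rose, and Angpt2 and Vegfd (−0.69) fell. Of 17 clock genes the repressor gene Per1 rose by 0.52 and Nfil3 by 0.49, and 0 fell. Of 15 genes of glutamine and glutamate metabolism Slc7a5 and Asns rose and Ppat, the first enzyme of purine synthesis, fell by 0.58. Of 16 genes of nucleotide excision repair Ddb2 and Gtf2h5 (−0.40) fell. No marker of lymphocytes or endothelium was called, and of the epithelial markers Krt20 fell by 0.40. Without OXP replicates 1 and 2 the calls were lost for Cnn2, Tpm4, Pik3ca, Sod2, Edn1 and Nfil3, and for Vegfb (0.25), Ppat (−0.34) and Krt20 (−0.26), which differed less. A second probe set of Ppat gave 0.17.

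The same change of medium without the drug, STS minus CTR, was used to ask which of these differences were not the same with and without oxaliplatin, through the interaction, which is the starvation difference with the drug minus that without it. The 2 differences share no arrays. In the fit without OXP replicate 2, 3190 genes (18.7%) were called for STS minus CTR, 1818 higher (10.6%) and 1372 lower (8.02%). For the interaction 1756 genes (10.3%) were called, 510 positive (2.98%) and 1246 negative (7.29%). With all 12 arrays the counts were 2819 (16.5%) and 1417 (8.29%). Of the 1166 genes called with oxaliplatin, 488 (41.9%) were also called for the interaction. Of the 1166, 618 were called in both settings, which is 53% of the calls with oxaliplatin and 19.4% of those without, and 467 of these had the same sign. The other 151 had opposite signs, and all of them were called for the interaction. That was nearly fixed by their selection, since 2 called differences of opposite sign add up in the interaction. With the same sign, 93 were called for the interaction, 77 with a smaller difference under oxaliplatin and 16 with a larger one. Another 548 were not called without the drug, of which 244 were called for the interaction. Across all genes the differences with and without the drug had a Pearson r of 0.257, given as a description because genes are not independent replicates.

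**Figure D5:**
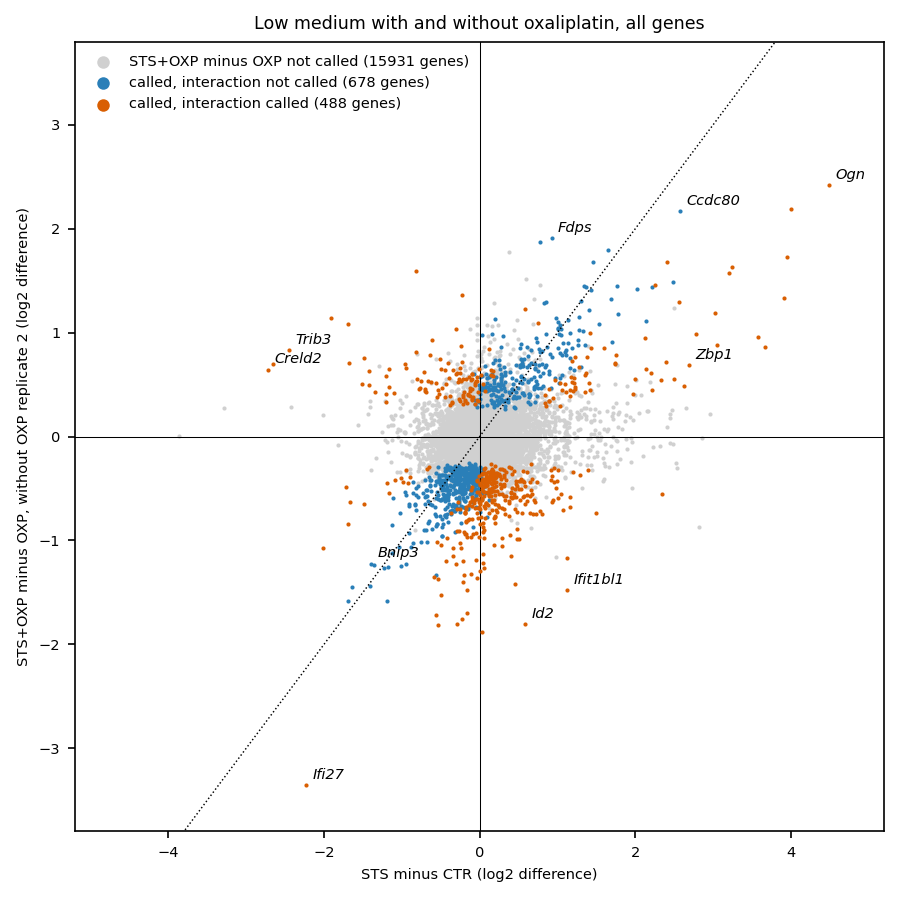
Log2 difference STS+OXP minus OXP without OXP replicate 2 (vertical) against STS minus CTR (horizontal), with 1 point per gene, grey for genes not called with oxaliplatin, blue for genes called and not called for the interaction, orange for the 488 genes called for both and a dotted line where both differences are equal. Orange points lie in all quadrants, and 151 of them are called with opposite signs in the 2 settings.

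Genes of lipid synthesis were called higher under starvation in both settings, although none of them was called with the drug when all arrays were used. Of 18 fatty acid genes 12 were higher in STS than in CTR, with a median of 0.746. All 19 cholesterol genes were also higher in STS than in CTR, with a median of 1.19, and 3 of the 19 were called for the interaction, each with a smaller difference under the drug. Besides Hmgcs1, which was not above the floor on OXP replicates 1 and 3, these were Dhcr7 and Nsdhl. Dhcr7, the last reductase of cholesterol synthesis, differed by 1.35 without oxaliplatin and by 0.59 with it, an interaction of −0.76 (adjusted p = 0.00564), and Nsdhl, a sterol dehydrogenase, by 1.42 and 1.00 (interaction −0.42, adjusted p = 0.0197). For Idi1 the differences were 1.76 and 1.45, and their interaction of −0.31 was not called (adjusted p = 0.169). HIF-1 targets fell in both settings, 20 of 32 without the drug and 14 with it, and the 8 called for the interaction were all positive. Of these 8, Ero1a, P4ha2, Ndrg1 and Slc2a1 were among the 14 called lower with the drug, and the other 4 were not called with it. Ero1a, an oxidoreductase of the endoplasmic reticulum, differed by −1.72 without and −0.48 with the drug, and Slc2a1 by −0.94 and −0.32 (interaction 0.62, adjusted p = 0.00443). Bnip3 differed by −1.39 and −1.22 (interaction 0.17, adjusted p = 0.662). Of 16 glycolytic genes 3 were called for the interaction. Pgk1 fell more under the drug, with −1.02 against −0.55, and Hk1 changed sign, with −0.47 against 0.31 (interaction −0.79, adjusted p = 0.0035). With the drug, Ero1a, Slc2a1 and Hk1 were not called without OXP replicates 1 and 2.

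The stress responses went opposite ways. Of 36 genes of the ATF4 response 32 were lower and 0 higher in STS than in CTR, and 29 were called for the interaction, all positive. Trib3, a pseudokinase that restrains AKT, shows the levels behind this. It read 8.38, 8.17 and 8.26 in CTR and 5.84, 5.82 and 5.81 in STS, and 4.70, 5.56 and 4.98 in OXP and 5.59, 5.72 and 5.71 in STS+OXP. Its level was thus highest in CTR among the 4 groups, and the starvation differences were −2.45 without and 0.83 with the drug (interaction 3.28). Of the 26 endoplasmic reticulum genes 23 were lower in STS than in CTR, and 21 were called for the interaction, all positive. Hspa5 differed by −1.16 without and 0.65 with the drug, Creld2 by −2.72 and 0.64 and Sdf2l1 by −2.66 and 0.70. Gadd45a followed the same pattern, with −1.91 and 1.14 (interaction 3.06).

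DNA replication and interferon genes also differed between the settings. Of 45 replication genes 7 were higher and 3 lower in STS than in CTR, and 19 were called for the interaction, 18 of them negative. Rrm2 differed by 0.28 without the drug (adjusted p = 0.0886) and by −1.05 with it (interaction −1.34, adjusted p = 0.000127). Of 55 interferon-stimulated genes 54 were higher and 1 lower in STS than in CTR, and 52 were called for the interaction, all negative. The antiviral gene Ifit1 read 9.04, 9.14 and 9.08 in CTR and 10.64, 10.65 and 10.60 in STS, and 11.15, 11.15 and 11.11 in OXP and 11.09, 11.08 and 11.14 in STS+OXP. Its level was thus lowest in CTR and differed by −0.03 between STS+OXP and OXP without OXP replicate 2 (adjusted p = 0.888). Cxcl10 changed sign, with 0.51 without and −0.99 with the drug (interaction −1.50), as did Ccl2, with 0.48 and −0.99 (interaction −1.47). Ifi27 fell in both, with −2.23 without and −3.35 with oxaliplatin (interaction −1.12). Among other genes that rose without the drug and fell with it were Id2 (0.58 and −1.81, interaction −2.39, adjusted p = 7.26e-06) and Hspa1b (1.12 and −1.17, interaction −2.29, adjusted p = 8.35e-06). Gpx1 differed by −1.22 without and −1.26 with the drug, and its interaction of −0.04 ± 0.11 (SE) was not called (adjusted p = 0.884), which does not show that both effects are equal.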

How the data were processed

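Total RNA of CT26 cells, extracted with a column kit and labelled with biotin, was hybridised to 12 Affymetrix arrays, 3 per group, and groups were taken from the titles. The deposited values are on the log2 scale and were made by the authors with RMA, which corrects the background, equalises the distribution between arrays and summarises probes, in R 3.02 per the submitters' processing notes. Arrays give no read depth, so the precision rests on how many there are. No further normalization or filter on low signal was applied. Of 45141 probe sets, 28898 had 1 gene symbol, 551 several and 15588 none, and 104 were controls. Symbols were matched to RefSeq by gene ID for 16936 of the 17097 genes, and some genes are not reported here. The floor of an array was the highest of 22 control probe sets without a target, used in place of the bacterial controls first chosen, which had been spiked in. A fold against a group at the floor is a lower bound.

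A model of 4 group means was fitted with limma 3.58.1 in R 4.3.3, two-sided, with Benjamini-Hochberg adjustment over all genes and a threshold of 0.05. Residual degrees of freedom were 8 with all arrays, 7 without OXP replicate 2 and 6 without OXP replicates 1 and 2. The script was tested on simulated data. Members and the 42 gene lists were chosen with earlier results of these data known. Named genes were every gene called with all arrays, the 15 largest rises and 15 largest falls without OXP replicate 2 among called, non-overlapping genes above the floor in 1 group, up to 4 called members of each list, and 6 genes of the interaction in each fit, and other genes were singled out after their values were seen. Array numbers were not used to pair the samples in the main fits, since no label says that they pair cultures. Deviations of same-numbered OXP and STS+OXP arrays correlated at 0.0141, −0.0822 and 0.0089, and those of differently numbered arrays at −0.152 to 0.126. With so few arrays per group these values cannot settle whether the numbers pair cultures. Leaving out OXP replicates 1 and 2 together for genes and for the interaction, OXP replicate 1 for lists, and the search for the sterol response core were added after the data were seen. The other alternatives were centring, cyclic loess, other choices of probe sets, other variance models, a replicate block, an unequal-variance test and each array left out.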

Additional observations from a re-analysis of the deposited data

Results flagged for a closer look

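The starvation effect differed between cells with and without oxaliplatin for 1417 genes with all 12 arrays and for 1756 genes without OXP replicate 2, by the limma test of the interaction itself. The following genes were flagged because they had the smallest adjusted p-values of that test, and the values are interactions on the log2 scale, the starvation difference with the drug minus that without it. With all arrays these were Stbd1 (3.78), Car6 (3.53), Gbp2 (−2.66), Lgals9 (−2.16), Pnp2 (−1.93) and Ifit1 (−1.58). Without OXP replicate 2 they were Car6 (3.56), Creld2 (3.36), Sdf2l1 (3.35), Trib3 (3.28), Gbp2b (−2.89) and Gbp2 (−2.78). Gbp2 and Gbp2b are related guanylate-binding proteins, whose probe sets may share sequence. Car6 had a mean signal of 3.859 over the 12 arrays, near the mean floor of 3.53, and Stbd1 one of 4.765. With all arrays, STS+OXP minus OXP was 0.24 for Car6 and −0.0875 for Stbd1, so their interactions lay mostly in STS minus CTR. Whether groups near the floor limit these 2 values was not tested. No cause of the interactions was tested.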

How the results depend on the processing

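Counts of called genes depended on the settings for STS+OXP minus OXP. With all arrays, 2 genes were called in limma, 4 with each array centred on its median, and 0 with the mean of all probe sets, trend and robust eBayes, array weights, only the groups compared or a fold of at least 2, although 1265 to 2070 genes passed an unadjusted p of 0.05 in those refits. With each array left out in turn the count was 0 to 1166, the highest without OXP replicate 2. The 1166 genes without OXP replicate 2 became 103 at a fold of at least 2, 499 with array weights, 400 with only the groups compared and 688 with OXP replicates 1 and 2 left out together. A further array left out gave 685 to 2893, with 748 without STS+OXP replicate 2, 685 without STS+OXP replicate 3, 688 without OXP replicate 1 and 2893 without OXP replicate 3. The unequal-variance test called 0 genes in both sets, with 514 and 1073 at an unadjusted p of 0.05. With the replicate block, 0 genes were called with all arrays (2097 at an unadjusted p of 0.05) and 880 without OXP replicate 2, of which 847 were among the 1166, and the interaction gave 1250 and 1457. Median centring, cyclic loess and the other choices of probe sets and variance gave 888 to 1286 genes. The interaction gave 362 and 413 genes at a fold of at least 2 with all arrays and without OXP replicate 2, and 955 to 1756 and 1293 to 3071 with an array left out, the highest without OXP replicate 2 and without OXP replicate 3. STS minus CTR gave 2819 genes with 12 arrays, 3190 with 11 and 385 at a fold of at least 2. Among the named genes, differences changed sign with the mean of probe sets for Bcl2l1 (0.0452) and Gla (0.113), with specific probe sets for Fxyd2 (0.0329), Mre11a (0.0584) and Tpm2 (0.0587), and with cyclic loess for Ifit1 (0.0324). Stbd1, not called, read −0.00509 with loess, −0.0875 with all arrays, −0.0111 and −0.0906 without STS+OXP replicates 2 and 3, and −0.162 to 0.178 over all arrays left out in turn, the lowest without OXP replicate 3. Of the other checks on named genes, 3035 kept their direction and side of the threshold, 654 lost the call and 11 gained it. The causes were not tested.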
